A study of Homo sapiens with 4 samples.

Results

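The keratin gene family was examined in RNA-seq libraries of MDA-MB-468, an established human line of triple-negative breast cancer, meaning that the tumour lacked the oestrogen and progesterone receptors and HER2 amplification. Members were the protein-coding genes of the GENCODE 29 annotation whose symbol is KRT followed by digits and an optional A, B or C: 55 of the 19692 protein-coding genes, and of the 56865 genes of any kind, that had a transcript in the files. By protein class 29 are type I and 26 are type II keratins. By position 28 lie on chromosome 17, all of type I, and 27 on chromosome 12, which are the type II genes and the type I gene KRT18. By the sites where they are best known, 5 were grouped as simple, 3 as basal, 5 as stress, 17 as hair, 9 as hair root sheath and 16 as other epithelial keratins.

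The study set 2 libraries of cells given DMSO, the solvent, against 2 of cells given 5 µM MS1943 for 3 days. MS1943 is a small molecule made to remove EZH2, the enzyme of Polycomb repressive complex 2 that methylates histone H3. Since it acts on the protein, the level of the EZH2 transcript does not check the treatment label, and the label was not checked in another way. All 4 libraries came from cells of passage 12, and the labels give no time for the DMSO dishes. The labels speak of dishes in duplicate without saying whether the duplicates were separate cultures, so the p-values below measure the spread between these libraries, which may be technical. The titles carry the letters A and E for the DMSO libraries and BCD and FGH for the MS1943 libraries, and what the letters mark is not given in the labels. Replicate numbers here follow the order of accession and only name the libraries.

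Keratins are the intermediate filament proteins of epithelial cells. A filament is built from pairs of 1 type I and 1 type II chain, so that cells express partners together: KRT8 with KRT18 in simple epithelia, KRT5 with KRT14 in the basal layer of stratified epithelia, and KRT6 with KRT16 and KRT17 in wounded or hyperproliferating epidermis. In the mammary gland KRT8, KRT18, KRT19 and KRT7 are known from luminal cells, and KRT5, KRT14 and KRT17 from basal cells and from basal-like tumours, the class in which MDA-MB-468 is usually placed.

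Salmon's estimated reads totalled 64720699 and 71378893 in the DMSO libraries and 69878745 and 47564377 in the MS1943 libraries. Of these, 0.482 to 0.496% fell on transcripts with no match in GENCODE 29. Between libraries genes were compared with edgeR's quasi-likelihood test on estimated reads, adjusted over 19358 genes, with calls made below an adjusted p of 0.05. The spread of genes between libraries of a group was small (common coefficient of variation 0.0478), so that small differences could pass, and 59.3% of all genes tested were called. Levels are given as TPM, which are shares of the transcript pool scaled by transcript length and can be compared between genes. Of the markers of other cell types, the leukocyte genes PTPRC, CD3E and LYZ stayed under 0.1 TPM in every library, while CD68 stood at 1.72 and 0.733 TPM with DMSO and 31.7 and 30.6 TPM with MS1943. The fibroblast list summed to 12.6 and 10.7 against 17.97 and 15.3 TPM, with 2 of 5 genes tested and both called higher. The endothelial list summed to 2.32 and 2.16 against 0.911 and 0.757 TPM, with 4 of 5 tested and all 4 called lower. Over all genes tested 30.0% were called higher and 29.4% lower. PDGFRB of the fibroblast list passed the filter on low counts only through the MS1943 libraries. CDH5 and VWF of the endothelial list passed it only through the DMSO libraries, so no support is drawn from these counts. The epithelial list (EPCAM, CDH1, CLDN4, CLDN7 and ESRP1) summed to between 1042 and 1100 TPM in the 4 libraries. The part of any of these in the keratin values was not tested.

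Several keratins are near copies of each other, which bears on how far a short read can be given to one gene. The 3 KRT6 genes lie next to each other on the minus strand of chromosome 12 in hg38 (KRT6B at chr12:52446651-52452126, KRT6C at chr12:52468516-52473785 and KRT6A at chr12:52487174-52493257). Over the whole coding sequence of 1692 bases, KRT6A and KRT6B were 97.5% identical, KRT6A and KRT6C 97.9%, and KRT6B and KRT6C 98.5%. Of the 31-base words of the transcripts of KRT6B, 58.3% also occurred in another gene, as did 51.9% for KRT6C and 44.04% for KRT6A. Values for the single KRT6 genes are therefore uncertain, and their sum is given as well.

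The type I stress keratins and their basal relative KRT14 lie together on the minus strand of chromosome 17 (KRT14 at chr17:41582279-41586921, KRT16 at chr17:41609778-41615899 and KRT17 at chr17:41619441-41624842). Over the coding sequence, KRT14 was 85.2% identical to KRT16 and 78.0% to KRT17, and KRT16 was 72.5% identical to KRT17. The share of 31-base words found in other genes was 33.0% for KRT14, 31.8% for KRT16 and 24.5% for KRT17, mostly in each other and in pseudogenes. By contrast it was 4.04% for KRT5, 6.42% for KRT19 and 1.28% for KRT4.

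The keratin transcript pool grew and changed its make-up with MS1943. Keratins held 0.838 and 0.857% of all TPM in the DMSO libraries and 1.15 and 1.09% in the MS1943 libraries. Simple keratins made up 75.6% ± 0.535 (SD, n = 2) of keratin TPM with DMSO and 44.1% ± 1.84 (SD, n = 2) with MS1943. Stress keratins went from 6.35% ± 0.264 to 24.4% ± 1.37, and basal keratins from 13.8% ± 0.291 to 27.4% ± 0.591 (SD, n = 2 each). In each of these shares the libraries of the 2 groups did not overlap. Since shares add to 100, a gain of one class lowers the others, and the summed levels were 6404 against 4952 TPM for simple, 539 against 2739 TPM for stress and 1169 against 3076 TPM for basal keratins. With 2 libraries against 2, an exact permutation test of a single sum could not pass a threshold of 0.05, and none is given.

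**Figure D1:**
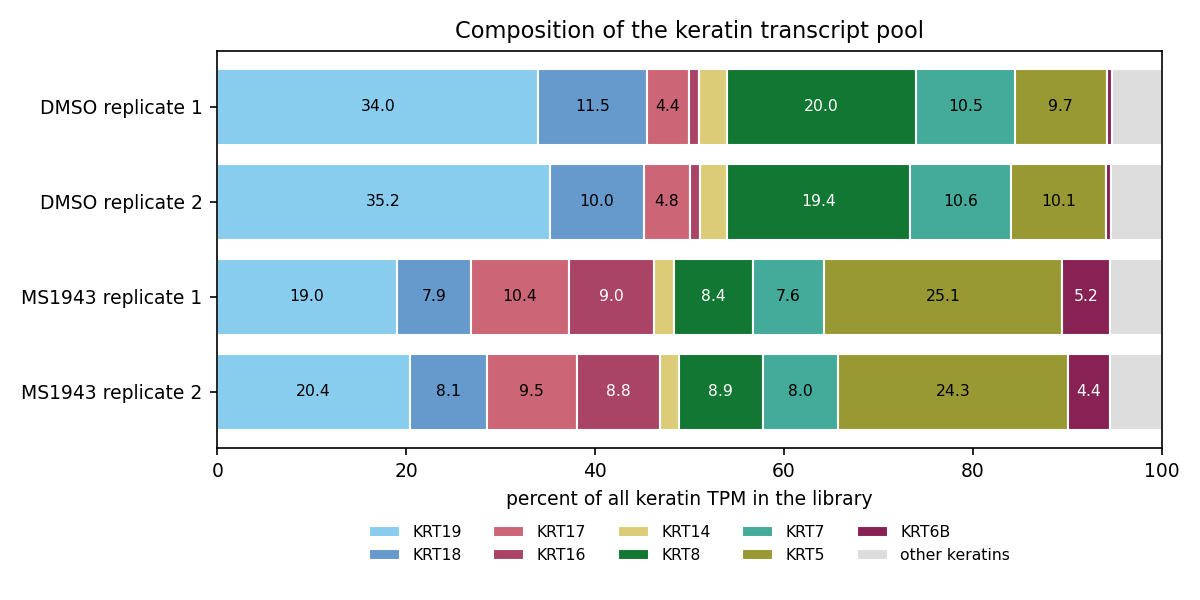
Share of each keratin gene in the summed keratin TPM of a library, in percent, with 1 bar per library and the numbers giving shares above 4%. KRT19 and KRT8 hold 35.2 and 19.4% in DMSO replicate 2 against 20.4 and 8.87% in MS1943 replicate 2, while KRT5, KRT16, KRT17 and KRT6B hold larger shares in both MS1943 bars.

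Of the 55 keratins, 28 had enough reads to be tested. Of these, 17 were called higher with MS1943, where 30.0% of all genes tested were, 6 were called lower, where 29.4% of all genes were, and 5 were not called. With a fold change of at least 2 as a further condition, 12 were higher and 1, KRT4, was lower, against 7.97 and 7.93% of all genes. KRT6C, KRT3, KRT34 and KRT79 passed the filter on low counts only through the MS1943 libraries, so these 4 had to differ to be counted, and no support is drawn from the counts. Among the 17 keratins with a mean of at least 10 TPM in either group, 11 were called higher, 4 lower and 2 were not called. KRT75 and KRT6A reached 10 TPM only with MS1943, with means of 0.277 and 3.03 TPM with DMSO and 19.4 and 77.7 TPM with MS1943. No support is therefore drawn from this count either.

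**Figure D2:**
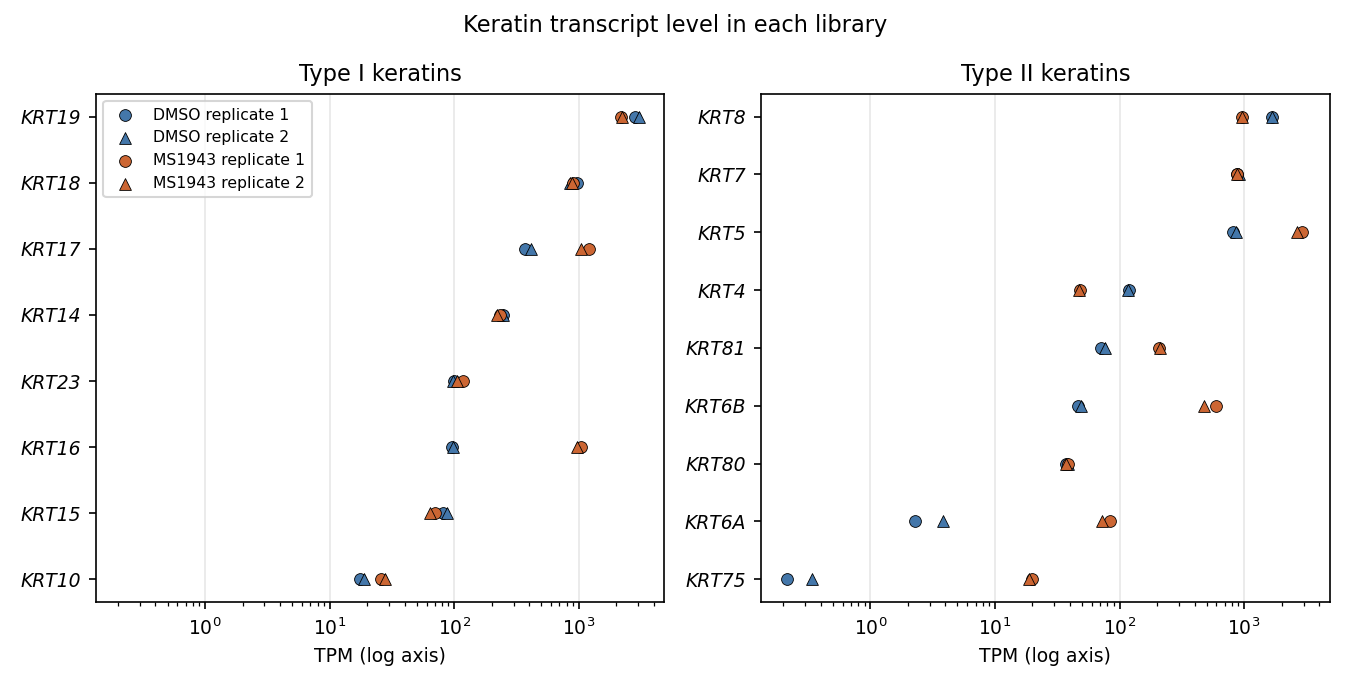
TPM of the 17 keratin genes with a mean of at least 10 TPM in either group, in each of the 4 libraries on a log axis, with type I genes left and type II genes right. The libraries of the groups stand well apart for KRT5, KRT6A, KRT6B, KRT16, KRT17, KRT75 and KRT81 (higher with MS1943) and for KRT4 and KRT8 (lower), and lie close together or overlap for KRT7, KRT18, KRT14 and KRT80.

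Among the simple keratins, KRT8 and KRT19 fell and KRT18 and KRT7 were not called. KRT8, the type II chain of the first keratin pair of the embryo and of simple epithelia, stood at 1677 and 1661 TPM with DMSO and 966 and 969 TPM with MS1943. The groups did not overlap, and KRT8 fell by 0.66 ± 0.06 on the log2 scale (SE; edgeR adjusted p = 2.5e-08), which is 1.58-fold lower. KRT19, a type I keratin of luminal cells that lacks the tail domain of the other keratins, stood at 2847 and 3019 TPM with DMSO and at 2192 and 2231 TPM with MS1943. It too was lower in both MS1943 libraries, with a log2 fold change of -0.27 ± 0.06 (SE, adjusted p = 0.0010). KRT18, the type I partner of KRT8, stood at 960 and 856 TPM with DMSO and 906 and 889 TPM with MS1943. Its MS1943 values lay between its DMSO values, and its fold change of 0.11 ± 0.07 (log2, SE) was not called (adjusted p = 0.16). Without DMSO replicate 1, the library with the higher KRT18 level, the fold change was 0.22 and was called higher (adjusted p = 3.0e-04). KRT7, the type II chain of glandular ducts, stood at 877 and 910 TPM with DMSO and 875 TPM in both MS1943 libraries. Its log2 fold change was 0.05 ± 0.06 (SE, adjusted p = 0.50), and it was -0.06 when libraries were scaled by their total reads only. KRT20, the simple keratin of the intestine and of Merkel cells, had at most 8 reads in a library and was not tested.

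The level of KRT8 came close to that of its partner KRT18. The ratio of KRT8 to KRT18 TPM was 1.75 and 1.94 with DMSO and 1.07 and 1.09 with MS1943. The genes overlap on opposite strands of chromosome 12 (KRT8 at chr12:52897187-52949954 on the minus strand and KRT18 at chr12:52948871-52952901 on the plus strand), and the library kit does not mark strand, so reads in the overlap could be given to either. Many processed pseudogenes also carry their sequence, and 25.0% of the 31-base words of KRT8 and 35.0% of those of KRT18 occurred in other genes. The 50 KRT8 pseudogenes together held reads equal to 0.443 and 0.505% of those of KRT8 with DMSO and 1.03 and 1.01% with MS1943. The 67 KRT18 pseudogenes held 0.115 and 0.134% of the reads of KRT18 with DMSO and 0.0874 and 0.0840% with MS1943.

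The basal keratins differed in size and direction. KRT5, the type II chain of basal epidermal cells and a marker of basal-like breast tumours, stood at 812 and 866 TPM with DMSO and 2901 and 2660 TPM with MS1943. The groups did not overlap, and KRT5 was 3.64-fold higher, a log2 fold change of 1.86 ± 0.07 (SE, edgeR adjusted p = 4.4e-14). With DMSO KRT5 had rank 5 among keratins and 170 among all genes by mean TPM, and with MS1943 it was the keratin of the highest level and ranked 30 among all genes, above KRT19. KRT15, a type I keratin of basal cells and of hair follicle stem cells, stood at 81.8 and 87.4 TPM with DMSO and 70.2 and 64.0 TPM with MS1943. It fell by 0.18 ± 0.06 on the log2 scale (SE, adjusted p = 0.010). Without MS1943 replicate 2 the value was -0.13 and was not called (adjusted p = 0.11).

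KRT14, the type I partner of KRT5, did not move with it in the level summed over transcripts. KRT14 stood at 245 and 247 TPM with DMSO and 234 and 221 TPM with MS1943, which is slightly lower in both MS1943 libraries. On estimated reads, in contrast, it was called higher, with a log2 fold change of 0.23 ± 0.06 (SE, edgeR adjusted p = 0.0020). Its transcripts changed in make-up as well. A short retained-intron transcript held 17.8 and 20.2% of KRT14 reads with DMSO and 10.3 and 10.5% with MS1943. Being short, it held a larger part of KRT14 TPM, at 100 and 109 TPM with DMSO and 62.2 and 59.9 TPM with MS1943. The main protein-coding transcript went from 145 and 137 TPM to 172 and 161 TPM. With the mean transcript length of each library as an offset, the log2 fold change was -0.0036 and was not called (adjusted p = 0.97). The ratio of KRT5 to KRT14 TPM was 3.31 and 3.51 with DMSO and 12.4 and 12.0 with MS1943. This ratio counts all transcripts of each gene, the retained-intron transcript of KRT14 included.

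All 5 stress keratins were called higher, each by more than 2-fold, beside 7.97% of all genes tested that were called higher by at least 2-fold. They are the keratins that epidermal cells switch on at a wound edge and in hyperproliferation. KRT6C among them passed the filter on low counts only through the MS1943 libraries, and the KRT6 genes are near copies. No support is therefore drawn from the count of 5. KRT17, which breast basal cells also express, stood at 372 and 411 TPM with DMSO and 1199 and 1043 TPM with MS1943. The groups were apart, and the gene was 3.16-fold higher (log2 1.66 ± 0.07 SE, edgeR adjusted p = 3.9e-13). KRT16, the type I partner of KRT6, went from 96.2 and 97.3 TPM to 1043 and 961 TPM. This was 12.9-fold, a log2 fold change of 3.69 ± 0.07 (SE, adjusted p = 2.4e-18), and took KRT16 from rank 10 to rank 4 among keratins and from rank 1817 to rank 142 among all genes by mean TPM.

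The type II stress keratins were led by KRT6B in both groups. KRT6B stood at 46.3 and 48.7 TPM with DMSO and 595 and 480 TPM with MS1943, a log2 fold change of 3.63 ± 0.09 (SE, edgeR adjusted p = 6.0e-17). KRT6A stood at 2.27 and 3.80 TPM with DMSO and 83.6 and 71.7 TPM with MS1943, a log2 fold change of 6.48 ± 0.12 (SE, adjusted p = 3.9e-18). With DMSO a retained-intron transcript held 13.2 and 15.7% of the KRT6A reads, against 0.277 and 0.429% with MS1943, and the main protein-coding transcript held 99.5 and 99.2% with MS1943. With a transcript length offset the fold change of KRT6A was 4.84 on the log2 scale. KRT6C had 1.26 and 1.20 estimated reads with DMSO and 177 and 115 with MS1943. On 2 rounded reads in the DMSO group, its CPM ratio was 183, with an exact 95% interval for counting error of 50.3 to 1521.

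Taking the 3 KRT6 genes as 1, their summed level was 48.6 and 52.5 TPM with DMSO and 681 and 553 TPM with MS1943. The fold change of their summed reads was 3.79 on the log2 scale (edgeR adjusted p = 3.1e-17). KRT6B held 95.3 and 92.7% of the summed TPM with DMSO and 87.5 and 86.7% with MS1943. KRT6A, KRT6B and KRT6C together stood at 0.505 and 0.540 of the TPM of their partner KRT16 with DMSO and 0.653 and 0.576 with MS1943, which is somewhat higher in both MS1943 libraries. KRT17, which pairs with the same type II chains, rose less than KRT16, and the ratio of KRT17 to KRT16 TPM went from 3.86 and 4.22 to 1.15 and 1.09.

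**Figure D3:**
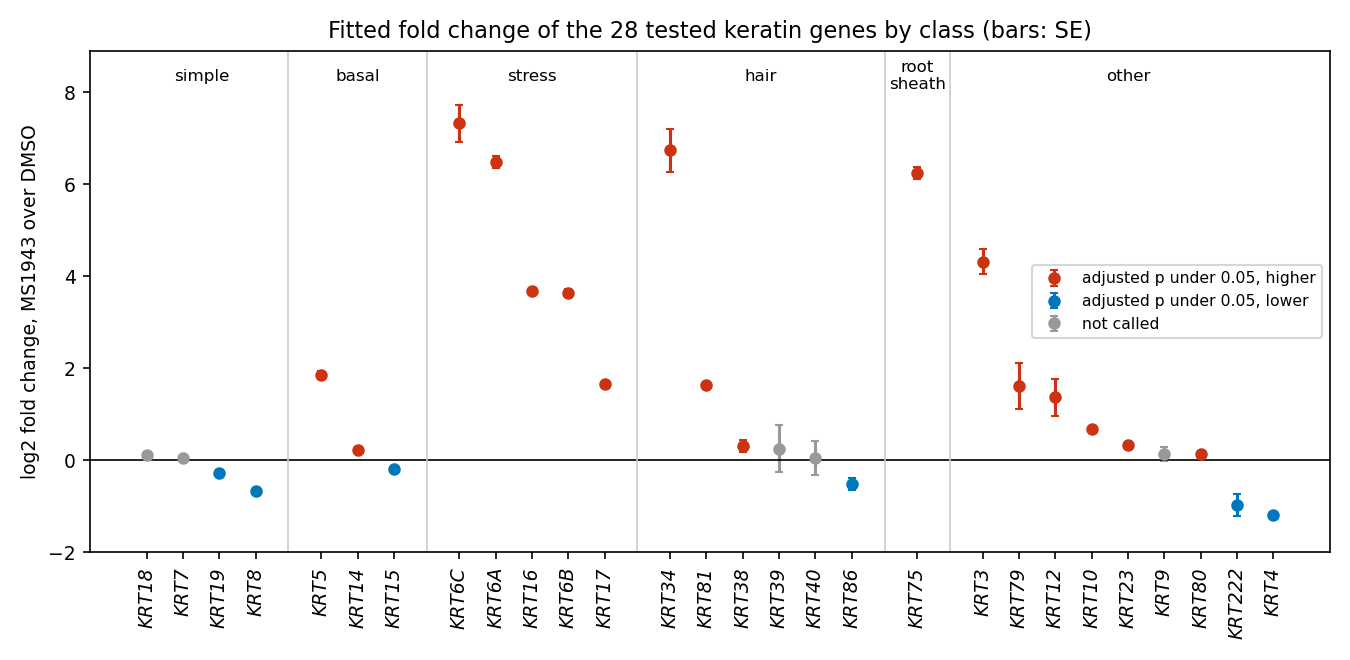
Fitted log2 fold change, MS1943 over DMSO, of the 28 keratin genes tested, grouped by class, with bars of 1 SE and colour for the call at an adjusted p under 0.05. All 5 stress keratins lie at or above 1.66, while the 4 tested simple keratins lie between -0.66 and 0.11; the fitted values of KRT6C and KRT34 rest on 2 DMSO reads each.

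In the 17 keratins of at least 10 TPM, 1 transcript mostly held the reads of a gene. Besides KRT14 and KRT6A, KRT16 and KRT80 had a second transcript with at least 10% of the reads in some library. For KRT16 this was a shorter protein-coding transcript, with 12.8 and 12.3% of reads with DMSO and 1.58 and 1.71% with MS1943. For KRT80 the second protein-coding transcript held 17.8 and 23.6% with DMSO and 19.02 and 18.3% with MS1943, values that overlapped. In the other 13 genes the main transcript held at least 82.1% in every library.

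Hair keratins, the hard keratins of the hair shaft and nail, stayed under 4 TPM except for KRT81 and KRT86. KRT81, a type II hair keratin also found in breast cancer cells, stood at 70.9 and 76.2 TPM with DMSO and 207 and 212 TPM with MS1943. It was 3.12-fold higher in groups that did not overlap (log2 1.64 ± 0.06 SE, edgeR adjusted p = 9.9e-15). KRT86, its neighbour, stood at 6.87 and 6.80 TPM with DMSO and 3.56 and 5.17 TPM with MS1943, and fell by 0.50 ± 0.13 on the log2 scale (SE, adjusted p = 0.0024). Without MS1943 replicate 1 the value was -0.28 and the call was lost (adjusted p = 0.087). The pair is uncertain, because KRT86 (plus strand, chr12:52249300-52309163) spans KRT81 (minus strand, chr12:52285913-52291534) and their sequences are close. Their coding sequences were 90.1% identical, and 52.3% of the 31-base words of KRT81 and 40.2% of those of KRT86 occurred in other genes. With the reads of KRT81, KRT83 and KRT86 summed, the log2 fold change was 1.55 (edgeR adjusted p = 1.8e-14).

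Of the other hair keratins, KRT34, a type I chain of the hair cortex, had 1 read in each DMSO library and 101 and 89 reads in the MS1943 libraries. Its CPM ratio was 119, with an exact 95% interval for counting error of 32.6 to 992, and its level stayed under 2 TPM. KRT38, another type I hair keratin, went from 2.60 and 2.55 TPM to 2.81 and 3.01 TPM, with a log2 fold change of 0.30 ± 0.13 (SE, edgeR adjusted p = 0.048). That call was lost in 10 of the 12 other settings run, among them the fits without each of the libraries in turn and DESeq2's test (adjusted p = 0.22). KRT39 and KRT40 were not called, with log2 fold changes of 0.25 ± 0.51 and 0.06 ± 0.37 (SE, adjusted p = 0.70 and 0.91) on at most 31 reads in a library. The other 11 hair keratins were not tested. KRT31, KRT33B and KRT35 had no read in any library, which allows up to 3 reads or 0.0400 to 0.0656 CPM in a library, and KRT36, KRT37, KRT82, KRT84 and KRT85 had at most 2 reads in a library. KRT32, KRT33A and KRT83 had at most 13.

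Among the root sheath keratins KRT75 was the only one tested. KRT75, the type II keratin of the companion layer of the hair follicle, stood at 0.213 and 0.341 TPM with DMSO and 20.0 and 18.8 TPM with MS1943. The reads behind these were 21 and 37 with DMSO and 2140 and 1382 with MS1943, and the gene was 75.6-fold higher (log2 6.24 ± 0.13 SE, edgeR adjusted p = 1.2e-17). KRT25, KRT27, KRT28, KRT72 and KRT73 had no read in any library, and KRT26, KRT71 and KRT74 had at most 3 in a library.

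The remaining epithelial keratins moved in both directions. KRT4, the type II keratin of the inner layers of oesophagus and oral mucosa, stood at 120 and 118 TPM with DMSO and 47.8 and 47.0 TPM with MS1943. It fell by 1.19 ± 0.06 on the log2 scale (SE, edgeR adjusted p = 1.1e-12), a 2.28-fold lower level in groups that did not overlap. Its partner KRT13 had at most 17 reads in a library and was not tested. KRT23, a type I keratin of glandular epithelia, stood at 98.9 and 98.6 TPM with DMSO and 117 and 105 TPM with MS1943, and was 1.25-fold higher (log2 0.32 ± 0.06 SE, adjusted p = 1.0e-04). KRT10, the type I keratin of the layers above the basal layer of epidermis, stood at 17.5 and 18.98 TPM with DMSO and 25.9 and 27.7 TPM with MS1943. It was 1.61-fold higher (log2 0.68 ± 0.06 SE, adjusted p = 2.2e-08), while KRT1, its type II partner, had at most 1 read in a library and was not tested. KRT80, a type II keratin found with desmosomes, stood at 36.9 and 38.5 TPM with DMSO and 38.3 and 37.5 TPM with MS1943, values that overlapped. Its reads were called higher with a log2 fold change of 0.14 ± 0.05 (SE, adjusted p = 0.031). The call was lost without DMSO replicate 1, without MS1943 replicate 1 and without MS1943 replicate 2 (adjusted p = 0.055, 0.19 and 0.073), and scaling by total reads only gave 0.03.

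At lower levels, KRT3, the type II keratin of the cornea, had 9 and 17 reads with DMSO and 213 and 195 with MS1943, a log2 fold change of 4.32 ± 0.26 (SE, edgeR adjusted p = 5.0e-11). KRT12, its type I partner in the cornea, had 15 reads in each DMSO library and 46 and 18 with MS1943, a log2 fold change of 1.37 ± 0.40 (SE, adjusted p = 0.0064). Without MS1943 replicate 1 the value for KRT12 was 0.86 and was not called (adjusted p = 0.26), nor was it with DESeq2's test (0.093). KRT79, a type II keratin of the hair canal and sebaceous gland ducts, had 10 and 6 reads against 20 and 19, a log2 fold change of 1.61 ± 0.50 (SE, adjusted p = 0.0093). Its call was lost without DMSO replicate 2 (1.20, adjusted p = 0.11), without MS1943 replicate 2 (1.37, 0.13) and with DESeq2's test (0.12). KRT222, a shorter keratin-like type I gene, had 91 and 101 reads with DMSO and 52 and 27 with MS1943, and fell by 0.97 ± 0.24 on the log2 scale (SE, adjusted p = 0.0020). The value is uncertain, because the protein-coding gene AC073508.2 overlaps KRT222 on the same strand and holds 30.4% of its 31-base words. KRT9, the type I keratin of palm and sole epidermis, was not called (log2 0.14 ± 0.15 SE, adjusted p = 0.45). KRT24 and KRT77 had no read in any library, and KRT2, KRT76 and KRT78 had at most 14.

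Keratins were also described by the motifs of their promoters. RefSeq promoter windows, here the 250 bases before the start site in GRCh38.p14, were matched by symbol for 34 of the 55 keratins. The 34 do not include the stress keratins KRT6A, KRT6B, KRT6C, KRT16 and KRT17, nor KRT14, KRT23, KRT80 and KRT81, called higher, nor KRT15, KRT19, KRT86 and KRT222, called lower. KRT3 and KRT10, which were both called higher, are shown as examples. The TATAAA motif is in capitals, and the windows read 5′ to 3′ on the minus strand on which both genes lie. The protein-coding gene TMEM99, on the plus strand, overlaps KRT10.

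KRT3, chr12:52796118-52796367: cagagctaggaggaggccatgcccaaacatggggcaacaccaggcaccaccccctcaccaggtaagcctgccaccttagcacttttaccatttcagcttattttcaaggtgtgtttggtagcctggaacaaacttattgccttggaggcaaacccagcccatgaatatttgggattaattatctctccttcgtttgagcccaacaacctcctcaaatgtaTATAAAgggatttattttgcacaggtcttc

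KRT10, chr17:40822615-40822864: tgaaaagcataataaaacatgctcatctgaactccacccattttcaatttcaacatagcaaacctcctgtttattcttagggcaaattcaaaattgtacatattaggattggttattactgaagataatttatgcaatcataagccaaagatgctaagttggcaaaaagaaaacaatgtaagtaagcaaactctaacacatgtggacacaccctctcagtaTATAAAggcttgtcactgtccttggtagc

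The motif lay 30 to 25 bases before the start in KRT3 and 29 to 24 bases before it in KRT10. On both strands, TATAAA occurred in 20 of the 34 keratin windows and in 11.1% of all 27305 promoter windows of the same length. The GC box GGGCGG occurred in 4 of the 34 and in 42.3% of all, the AP-2 motif GCCNNNGGC in 5 and in 19.7%, and the AP-1 motif TGANTCA in none and in 6.60%. Of the 34, 8 belonged to genes called higher, 4 of them with TATAAA, and 2 to genes called lower, neither with TATAAA. A match is a run of letters and not a measured site.

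Set by type, both classes held genes that moved either way. Of the 15 type I genes tested, 8 were higher, 3 lower and 4 not called, and of the 13 type II genes tested, 9 were higher, 3 lower and 1 was not called, beside 30.0% higher and 29.4% lower over all genes tested. Among genes that passed the filter, the median log2 fold change was 0.25 for type I and 1.64 for type II. Over all genes tested it was -0.01, and the difference between the types was not tested. KRT6C, KRT3 and KRT79 (type II) and KRT34 (type I) passed the filter only through the MS1943 libraries. No support is therefore drawn from these counts and medians. In summed level, type I keratins stood at 4725 and 4843 TPM with DMSO and 5796 and 5550 TPM with MS1943. Type II keratins stood at 3650 and 3730 TPM with DMSO and 5742 and 5382 TPM with MS1943. The ratio of type II to type I was 0.772 and 0.770 with DMSO and 0.991 and 0.970 with MS1943, so that the type II chains, the smaller pool with DMSO, came near the level of type I. The rise in the mean level of KRT5, from 839 to 2781 TPM, was larger than that of all type II keratins together, from 3690 to 5562 TPM, with KRT8 lower. Without KRT18, which lies among the type II genes, the ratio of type II to type I TPM was 0.969 and 0.936 with DMSO and 1.17 and 1.15 with MS1943.

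Along the chromosomes some of the keratins that rose lay next to each other, while KRT3 and KRT34, with larger fitted rises than KRT5, lay apart from these groups. On chromosome 12, where the 27 keratin genes span 784 kb of hg38, KRT75, KRT6B, KRT6C, KRT6A and KRT5 follow each other over 96.6 kb (chr12:52424070-52520687), and all 5 were called higher by at least 1.86 on the log2 scale. The stretch was picked because its genes rose here, and 30.0% of all genes tested were called higher. KRT6C passed the filter on low counts only through the MS1943 libraries, and the KRT6 genes share much of their sequence. No support is therefore drawn from this run of calls. The next 8 keratin genes on the KRT3 side, from KRT71 to KRT76, had too few reads to be tested. KRT4 lies between KRT3 and KRT79 and was lower while its 2 neighbours were higher. On chromosome 17 the 28 keratin genes span 970 kb, and KRT14, KRT16 and KRT17 share 42.6 kb at its end (chr17:41582279-41624842). KRT15 and KRT19, the next tested keratins beyond KRT9, were lower.

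**Figure D4:**
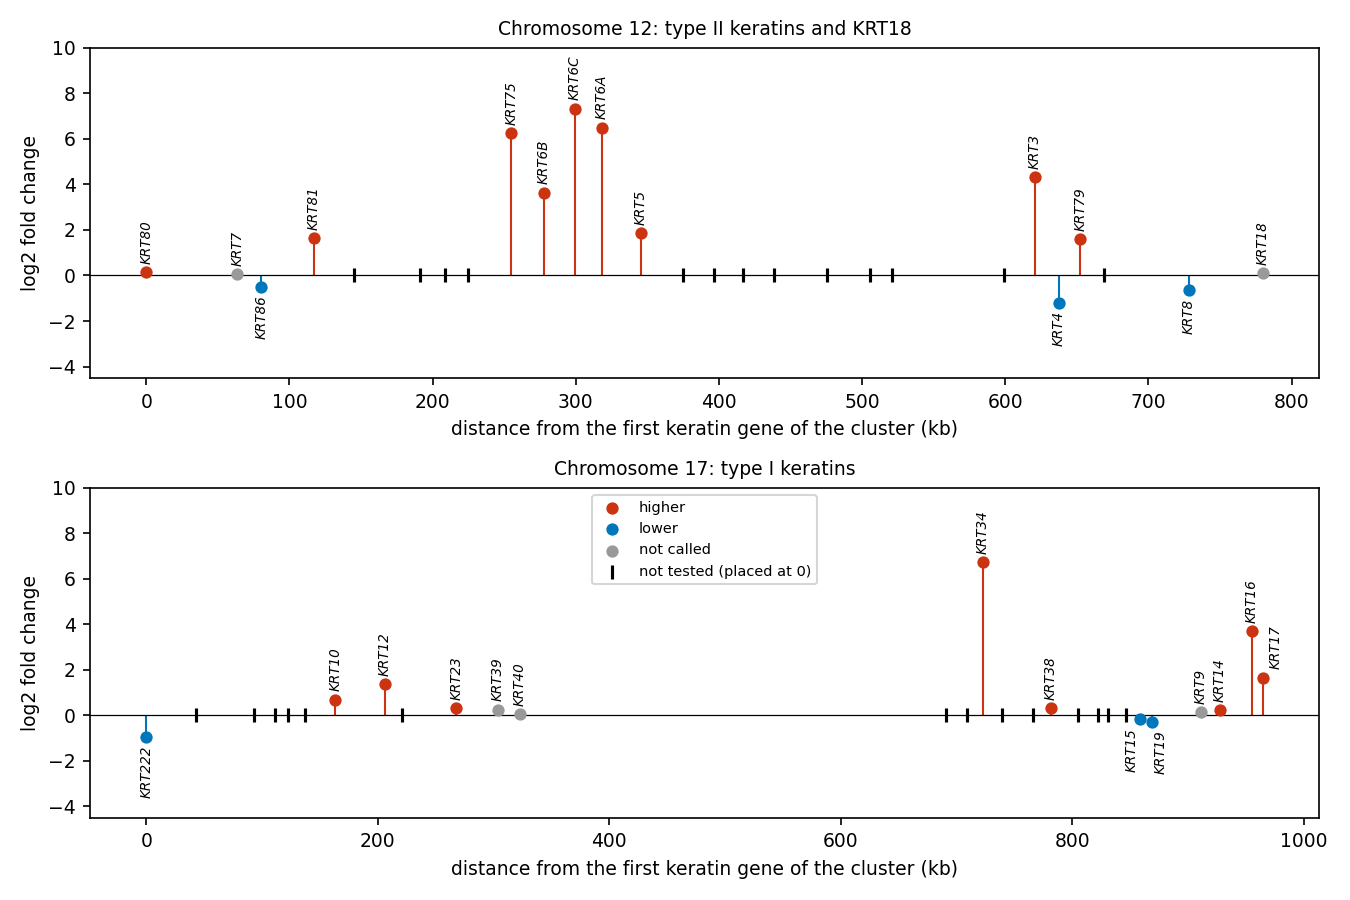
Fitted log2 fold change of each tested keratin gene against its distance in kb from the first keratin gene of the cluster, for chromosome 12 above and chromosome 17 below, with ticks at 0 for genes not tested. On chromosome 12 the 5 genes from KRT75 to KRT5, a stretch picked because its genes rose here, stand together at 1.86 or more. On chromosome 17 KRT16 and KRT17 stand at the end of the cluster.

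The structures that keratin filaments tie into moved in part. The counts below stand beside 30.0% of all genes tested called higher and 29.4% called lower, and a median log2 fold change of -0.01 over all genes. DSG3, PKP1, COL17A1 and FLG passed the filter on low counts only through the MS1943 libraries. No support is therefore drawn from these counts and medians, nor from the p-values of DSG3 and FLG. Of 12 desmosome genes, 10 were tested, of which 7 were higher, 1 was lower and 2 were not called, with a median log2 fold change of 0.56. Among them the desmosomal cadherins DSG3 (5.58 ± 0.22), DSG2 (1.09 ± 0.06) and DSC2 (0.70 ± 0.05) and the plakophilin PKP3 (0.62 ± 0.06) rose (log2, SE; edgeR adjusted p = 7.8e-14, 3.4e-12, 1.4e-09 and 2.8e-08). DSG3, a cadherin of stratified epithelia, was low, at 0.0555 and 0.0324 TPM with DMSO and 2.07 and 1.74 TPM with MS1943. Of the 8 hemidesmosome and anchor genes, all tested, 5 were higher, 1 was lower and 2 were not called, with a median of 0.94, while their summed level was 486 and 508 TPM with DMSO and 473 and 455 TPM with MS1943. The laminin-332 chains LAMB3 (1.57 ± 0.06) and LAMA3 (1.66 ± 0.14) rose (adjusted p = 2.0e-14 and 4.9e-09), and the integrin ITGB4, which binds laminin-332, fell by 0.91 ± 0.06 (adjusted p = 7.1e-11). Of 7 plakins and linkers, 6 were tested, with 4 higher and 2 lower and a median of 0.37. There TCHH (0.69 ± 0.07), FLG (2.69 ± 0.35) and MACF1 (0.42 ± 0.06) rose and EPPK1 fell by 0.55 ± 0.07 (adjusted p = 7.2e-08, 1.7e-06, 1.3e-05 and 6.9e-07).

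Of 12 cornified envelope genes, which build the protein shell of the outermost epidermal cells, 6 were tested, with 4 higher and 2 lower, where 30.0 and 29.4% of all genes tested were, and a median log2 fold change of 3.19 over these 6. The summed level of the list moved the other way, from 56.9 and 57.5 TPM with DMSO to 37.6 and 30.7 TPM with MS1943. SPRR1B, called higher, had 0 and 1 reads with DMSO and 39 and 21 with MS1943. It passed the filter only through the MS1943 libraries, so no support is drawn from the counts and median of this list. IVL (3.27 ± 0.15) and SCEL (4.17 ± 0.20), envelope proteins, rose, while the cross-linking enzyme TGM1 fell by 1.79 ± 0.11 and CNFN by 1.85 ± 0.12 (log2, SE; edgeR adjusted p = 5.6e-13, 1.9e-12, 6.0e-11 and 1.3e-10). IVL stood at 0.931 and 1.16 TPM with DMSO and 10.4 and 7.87 TPM with MS1943, and CNFN at 46.0 TPM in both DMSO libraries and 12.1 and 10.7 TPM with MS1943. Of 14 other intermediate filament genes, 11 were tested, of which 7 were higher, 2 were lower and 2 were not called, with a median of 0.43 beside the same shares over all genes. PRPH, called higher, passed the filter only through the MS1943 libraries, and NEFH, not called, only through the DMSO libraries. No support is drawn from these counts. VIM, the filament protein of mesenchymal cells, rose from 18.8 and 21.8 TPM to 97.1 and 87.1 TPM (2.27 ± 0.07, adjusted p = 5.1e-15). The lens filament gene BFSP1 rose by 1.29 ± 0.10, and the nuclear lamins LMNB1 and LMNB2 fell by 1.56 ± 0.06 and 0.82 ± 0.06 (adjusted p = 2.6e-09, 8.5e-14 and 2.0e-10).

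Of 12 transcription factors known to act on keratin genes, all tested, 3 were higher, 6 lower and 3 not called, with a median log2 fold change of -0.20. Over all genes tested 30.0% were higher, so the share called higher in this list was near the background, and 29.4% were lower. FOSL1 and JUN, subunits of AP-1, rose by 4.74 ± 0.07 and 2.29 ± 0.06 and KLF4 by 2.51 ± 0.10, and the epithelial factor GRHL2 fell by 0.66 ± 0.05 (log2, SE; edgeR adjusted p = 4.2e-19, 4.3e-16, 6.2e-14 and 3.8e-09). FOSL1 stood at 4.72 and 5.33 TPM with DMSO and 123 and 120 TPM with MS1943. TP63, the factor of basal epithelial cells that acts on KRT5 and KRT14, stood under 0.3 TPM in every library and was not called (adjusted p = 0.63).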

How the data were processed

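Poly(A) RNA of 4 libraries of MDA-MB-468 was made into libraries with Illumina's TruSeq RNA kit (v2), which does not mark strand, per the labels' protocols. The submitters' processing notes name genome build hg38, DESeq2, R 3.4.3 and Salmon 0.9.1. The annotation that Salmon used was not given in the sources. Per the file headers, each deposited file lists estimated counts, the reads that Salmon gave to a transcript, which can be fractional. Per the file headers, TPM, which scales abundance by length, was deposited beside the counts. The transcript length and effective length (other units) in the deposited files served only for the length offset.

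Transcript names, without version, were matched to GENCODE 29 (193505 of 197653), and reads and TPM were summed per gene. Rounded reads were tested with edgeR 4.0.16 in R 4.3.3: TMM scaling, filterByExpr by group, and a quasi-likelihood test of treatment over all 4 libraries, with Benjamini-Hochberg adjustment over the 19358 genes that passed. Standard errors were derived from the log2 fold change and its F statistic. The 3-read floor was 0.0400 to 0.0656 CPM. Intervals and floors cover counting error only. On data simulated for this comparison, run on 18895 genes, 200 genes were changed. Of these, 40 of 67 set to 1.5-fold were called, as were 52 of 67 at 2-fold and 60 of 66 at 4-fold. Of the unchanged genes, 1 was called. In the real data 59.3% of all genes tested were called, and the adjusted p depends on that share. The simulated rates therefore do not give those of the real comparison. Every tested keratin is named; those at 10 TPM or more in either group are given per library, with each transcript holding at least 10% of their reads in any library, and of each other list up to 4 genes with the smallest adjusted p. Keratin classes and the other lists were written by hand, and members and lists were chosen with earlier results of these data known. Alternatives were other scalings, filters, DESeq2 1.42.0, a length offset, merged copies, a stricter threshold and leaving out each library. Some genes and sequences are not reported here.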

Additional observations from a re-analysis of the deposited data

Results flagged for a closer look

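Some keratin-named genes that are not protein coding, and so were outside the comparison, had reads above the DMSO level. KRT16P6, a KRT16 pseudogene, had 97.1 and 159 estimated reads with DMSO and 828 and 522 with MS1943, a mean of 675 with MS1943, and a log2 fold change of 2.72 ± 0.14 (SE, edgeR adjusted p = 3.3e-12). KRT16P1 had no reads with DMSO and a mean of 27.8 with MS1943, KRT16P2 had 1 rounded read in each DMSO library and a mean of 59.1, and KRT16P3 had 2.00 and 4.02 reads with DMSO and a mean of 31.2 (adjusted p = 9.9e-07, 9.3e-09 and 8.0e-06). KRT16P1, KRT16P2 and KRT16P3 passed the filter on low counts only through the MS1943 libraries, so no support is drawn from their calls. The 6 KRT16 pseudogenes together held reads equal to 1.85 and 2.72% of those of KRT16 with DMSO and 1.33 and 1.37% with MS1943. Of the 31-base words of KRT16P1, 84.9% occurred in other genes, 12.9% in KRT16 itself. For KRT16P6 the share in other genes was 31.4%, and the gene that shared most of its words was KRT14, with 18.7%.

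KRT8P12 had 440 and 477 reads with DMSO and 601 and 391 with MS1943, a mean of 496 with MS1943 (log2 fold change 0.43 ± 0.10 SE, adjusted p = 9.5e-04), and KRT8P46 had 54.0 and 109 reads with DMSO and 123 and 94.0 with MS1943, a mean of 109 with MS1943 (0.76 ± 0.23 SE, adjusted p = 0.0087), while KRT8 itself was lower. KRT7-AS, antisense to KRT7, had 178 and 269 reads with DMSO and 298 and 168 with MS1943, a mean of 233 with MS1943 (0.38 ± 0.16 SE, adjusted p = 0.045), and without strand its reads cannot be told apart from those of KRT7 where the genes overlap. These 3 calls rest on reads scaled for depth, since the reads themselves overlap between the groups. In the other direction, KRT18P34, a KRT18 pseudogene, had 26.5 and 23.5 reads with DMSO and 6 and 2.24 with MS1943 (-2.33 ± 0.54 SE, adjusted p = 0.0010). KRT18P34 passed the filter only through the DMSO libraries, so no support is drawn from its call.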

How the results depend on the processing

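Keratins called higher numbered 14 to 17 and those called lower 5 or 6 over all alternatives, leave-one-out fits included. Of the 28 named keratins, 16 kept their direction and their side of the threshold in every setting run. The type II to type I ratio rose by 0.35 on the log2 scale, by 0.39 with CPM in place of TPM, by 0.29 with protein-coding transcripts only, by 0.29 with type I genes of chromosome 17 only, and by 0.33 to 0.36 with each library left out. The keratin share of all TPM rose by 0.276 percentage points, by 0.379 in CPM, and by 0.246 to 0.306 with each library left out. The sign turned, with no call on either side except for KRT14 in the main setting, for KRT7 and KRT40 with total reads only (-0.064 and -0.057), for KRT39, KRT9 and KRT14 with a length offset (-0.056, -0.061 and -0.0036), for KRT39 without MS1943 replicate 1 (-0.16, in a range of -0.16 to 0.55 over libraries left out), and for KRT40 without DMSO replicate 1 (-0.03) and without MS1943 replicate 2 (-0.12, in a range of -0.12 to 0.22). The cause was not tested, apart from the transcript make-up of KRT14. Scaling by total reads moved the median log2 fold change of all genes from -0.01 to -0.12. No paired analysis was run, because the labels carry no replicate numbers and state no pairing of the libraries. The replicate numbers used here are names only. Fits without 1 library leave a group with 1, which is then assumed to vary like the other group. KRT78, with at most 1 read in a DMSO library and 10 and 12 with MS1943, was not tested in the main setting but was called higher with no filter, by DESeq2's test and without either DMSO library, and KRT13 without DMSO replicate 2. The other untested keratins were called in no setting.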
